A study of Mus musculus with 12 samples.

Results

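The genes described here are those for the proteins of the cytosolic ribosome, taken as every array probe whose gene name reads as Rpl or Rps followed by a number, or as Rplp0, Rplp1 or Rplp2, provided that in 1 or more groups each of the 3 arrays flagged it as well above background. By name 187 probes of 83 genes qualified, and 183 probes of 81 genes also met the signal condition, out of 26261 tested probes among 55681 on the array. The 4 probes left out included the only probe of Rpl3l and both probes of Rpl10l. Large subunit proteins account for 108 of the 183 probes, small subunit proteins for 69, and the P stalk for 6. Rpsa, Fau and Rpl36al also encode ribosomal proteins or fusions that contain one, but the name pattern does not take them.

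RNA came from regulatory T cells (Treg) sorted from spleens of female C57BL/6 mice and was measured on 12 single-colour arrays, 3 in each of 4 groups. CD83cKO cells, from mice with a conditional knockout of Cd83, were measured after 3 h of activation with antibodies to CD3 and CD28 and without activation (0 h), and CD83 WT cells in the same 2 states. They are called KO and WT below. The labels do not name the Cre driver. KO mice were 10 weeks old, except for replicate 3 at 3 h and replicate 3 at 0 h, which came from mice of 21 weeks, and WT mice were 9 weeks old. The design lists 6 mice for 12 arrays without saying which arrays share a mouse, so the p-values below treat arrays as independent. The 3 slides held the 6 KO arrays, the 3 activated WT samples and the 3 non-activated WT samples, so the slide cannot be told apart from genotype or from WT activation, and of these comparisons only KO activation lies within 1 slide.

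The cytosolic ribosome translates messenger RNA in all cells. Its small subunit reads the message, its large subunit joins the amino acids, and the acidic P stalk of the large subunit recruits elongation factors. Ribosomal protein messages are among the most abundant in lymphocytes. Many start with a run of pyrimidines, the 5′ terminal oligopyrimidine (TOP) motif, through which the kinase complex mTORC1 controls their translation, so that in activated T cells ribosome output can change without a change in message. Several ribosomal proteins also have paralogues with restricted expression, and mammalian genomes hold many retrocopies of these genes, which array probes can also match.

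Cd83 was lower in KO cells at both times, by a log2 difference of -2.50 at 3 h (adjusted p = 0.00247, limma) and of -1.88 at 0 h (adjusted p = 0.00924, limma). Between 42.9% and 54.6% of probes were well above background on each array. The 2 arrays from 21-week mice stood apart in cell markers: relative to WT cells at 0 h, their 9 T cell markers were lower by a mean log2 difference of -2.53 at 3 h and -1.73 at 0 h, and their plasma cell markers were higher by 6.01 and 5.63. The other 10 arrays had T cell marker means between -0.55 and 0.09 and plasma cell marker means between -0.22 and 1.57. The Foxp3 probe, for the factor that defines Treg, lay between -5.84 and -3.16 in KO cells at 3 h and between -6.27 and -2.86 in KO cells at 0 h, and was not well above background on any of the WT arrays. The 8 Treg markers as a set, Foxp3 among them, did not share this direction. Relative to WT cells at 0 h, their mean was 0.44, 0.28 and -2.02 in KO cells at 3 h. It was -0.20, -0.22 and -2.38 in KO cells at 0 h, and -0.07 to 0.13 on the WT arrays. The part of these differences in the results below was not tested, and counts are given with and without the 21-week arrays. In such bulk samples, fewer cells of a type and less RNA per cell cannot be told apart.

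Values are log2 processed signals after subtraction of each array's 75th percentile over well-measured probes, listed as replicates 1, 2 and 3, and a probe is said to be called when its adjusted p (Benjamini-Hochberg over all tested probes) was under 0.05. Levels of different probes are not on a common scale and only differences are compared between probes. Each probe is a 60-base oligonucleotide. The last 30 bases of 12 of them are shown here because the results below turn on probes of the same gene, or of paralogues, that gave different differences, and in each pair of the same gene the called probe comes first. Capitals mark the hexamer AATAAA, the common signal for cleavage and polyadenylation.
Rpl22 probe A_52_P391718: agcatatgcttctaaaagatggtcccagat
Rpl22 probe A_55_P2015989: ctgcaatgttttgtattaattcataaataa
Rpl14 probe A_51_P232858: gttaaccctaacaAATAAAtttcccaccaa
Rpl14 probe A_55_P2070913: cacagaatAATAAAggttctttttgacggt
Rpl23 probe A_51_P108190: tgggaccaggtacacataacacagataaat
Rpl23 probe A_55_P2029344: taaaatatattcattaaagtctctgctctg
Rpl39 probe A_66_P126080: ttctggtttataaagtactgaattgccctt
Rpl39 probe A_55_P1957291: tcagtcctaccagatggatttcaacattta
Rps27a probe A_55_P2025173: actgcgttagacagccgcgattccgctgca
Rps27a probe A_55_P1976108: tgacaggcattactgtggcaagtgttgttt
Rpl7l1 probe A_52_P343343: ttctgccttcagaaactgaaggaaggcttg
Rpl7 probe A_55_P2081168: gttAATAAAcagtcacagcttggcaaaaaa

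On the strand of the probe, AATAAA was present in 56 of the 183 member probes (30.6%) and in 12.3% of all tested probes, and on the opposite strand in 2.73% and 3.83%. The variant ATTAAA was present in 7.1% of member probes and 4.33% of all tested probes. Both motifs were searched over the full 60 bases; they differ in 1 base and cannot start at the same position.

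Across the 12 arrays, the signals of ribosomal protein probes moved little. The median range of a member probe, highest minus lowest array, was 0.78 log2 units, against 1.68 for all tested probes. It was 1.43 for the 19799 tested probes well above background on all 12 arrays. Of 183 member probes 143 had a range under 1, against 5175 of these 19799. The median standard deviation within a group was 0.19 for members, 0.39 for all tested probes and 0.32 for the 19799. Whether signal level bears on these spreads was not tested. Relative to the mean of WT cells at 0 h, the median member was at -0.25, -0.14 and -0.49 in KO cells at 3 h, at -0.44, -0.15 and -0.09 in KO cells at 0 h, at -0.19, -0.25 and -0.38 in WT cells at 3 h, and at 0.06, 0.01 and -0.06 in WT cells at 0 h. Every KO array and every WT array at 3 h thus had a member median below all 3 WT arrays at 0 h, and the KO arrays of the 2 times overlapped. The lowest KO median at 3 h and the highest KO median at 0 h were those of the 21-week mice.

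**Figure D1:**
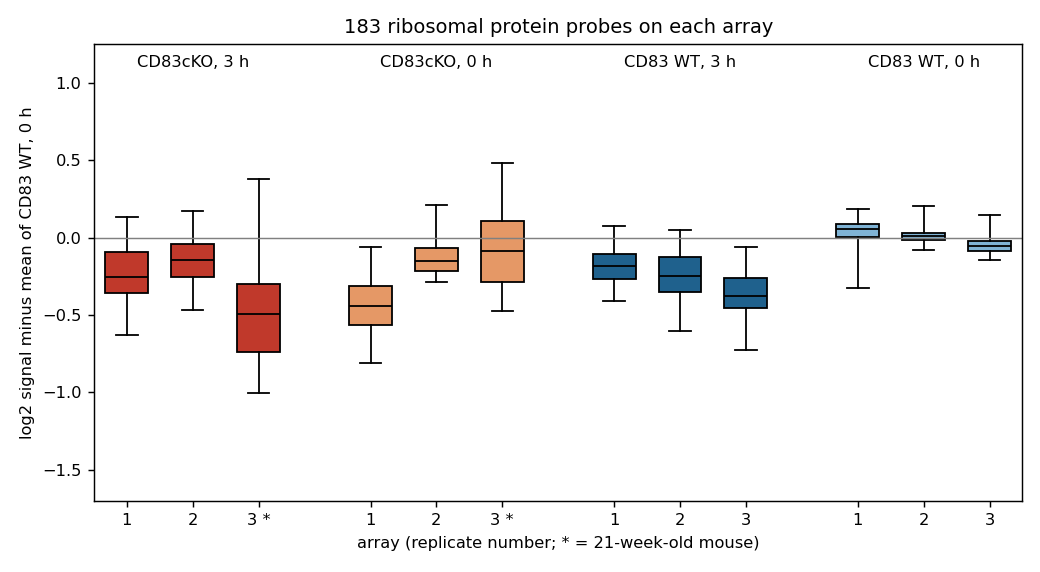
Log2 signal of the 183 ribosomal protein probes on each array, minus each probe's mean in WT cells at 0 h (y axis), for the arrays of each group (x axis). Boxes show the quartiles and median, whiskers the 5th and 95th percentiles; asterisks mark the 21-week mice. The WT arrays at 3 h sit at medians of -0.19 to -0.38, and the KO arrays at both times at -0.09 to -0.49.

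In WT cells, most ribosomal protein probes were slightly lower after 3 h of activation. The median difference, 3 h minus 0 h, was -0.28 (quartiles -0.35 and -0.16), against -0.10 over all tested probes, and 172 of 183 members were below 0. In 136 members (74.3%) all 3 arrays at 3 h lay below all 3 arrays at 0 h, against 37.5% of all tested probes. Few of these small differences passed the test: 12 of 183 members were called (6.56%), 2 higher and 10 lower, against 29.3% of all tested probes (13.7% higher and 15.6% lower). At an unadjusted p under 0.05 the count was 31 members (16.9%, against 41.1% of all tested probes). Without the 21-week arrays, which enter this comparison through the shared estimate of spread alone, 65 members were called (2 higher and 63 lower), which is 35.5% against 54.6% of all tested probes; by direction, 34.4% of members against 29.7% of all tested probes were called lower, and 1.09% against 24.9% higher. Taking the brightest probe of each gene, 76 of 81 genes were below 0 with a median of -0.28, and 1, Rpl7l1, was called, higher, against 29.9% of all 18560 genes. The mean of the 10 monocyte and macrophage markers tested, of 11 listed, also separated the 2 times, in both genotypes. It was -2.28 to -1.81 in WT cells at 3 h and -0.38 to 0.34 in WT cells at 0 h. In KO cells it was -0.33 to 0.88 at 3 h and 2.07 to 2.41 at 0 h. T cell marker means were -0.55 to -0.41 in WT cells at 3 h and -0.08 to 0.09 in WT cells at 0 h. The part of these markers in the result was not tested.

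**Figure D2:**
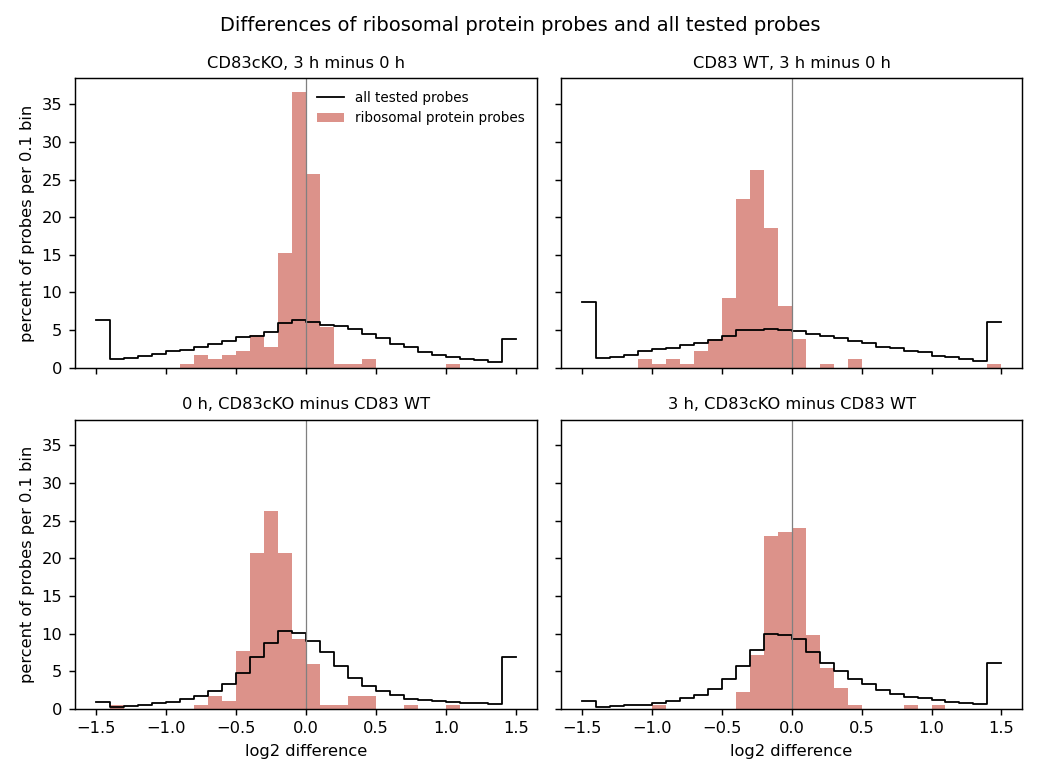
Share of probes (y axis, percent per 0.1 log2 bin) by log2 difference (x axis) in 4 comparisons, for the 183 ribosomal protein probes (bars) and all 26261 tested probes (line); the end bins pool everything beyond them. Members form a narrow peak at a median of -0.28 for WT activation and -0.05 for KO activation, and at -0.22 and -0.02 for KO minus WT at 0 h and at 3 h.

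Among the called members, the most negative moderated statistic belonged to Rpl22, whose protein is part of the large subunit, is dispensable for translation in general and is needed for the development of alpha beta T cells in mice. Its probe A_52_P391718 (mm9 chr4:151708012-151708071, plus strand) measured -0.66, -0.85 and -1.00 in KO cells at 3 h, 0.10, -0.04 and -0.27 in KO cells at 0 h, -0.79, -0.81 and -0.92 in WT cells at 3 h, and 0.16, 0.12 and 0.24 in WT cells at 0 h. In both genotypes all arrays at 3 h were below all arrays at 0 h. The difference was -0.77 ± 0.15 in KO cells (SE, adjusted p = 0.00971, limma) and -1.01 ± 0.15 in WT cells (SE, adjusted p = 0.00141, limma). The brightest Rpl22 probe, A_55_P2015989, starts 1497 bases upstream, and its differences of -0.16 ± 0.24 in KO cells and -0.47 ± 0.24 in WT cells were not called.

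Rpl14, a large subunit protein, gave the same arrangement. Probe A_51_P232858 (mm9 chr9:120483689-120483748, plus strand) measured -1.69, -1.62 and -1.40 in KO cells at 3 h, -1.10, -0.88 and -0.28 in KO cells at 0 h, -1.76, -2.05 and -2.01 in WT cells at 3 h, and -0.90, -0.91 and -0.94 in WT cells at 0 h. Neither genotype's groups overlapped. It fell by 0.82 in KO cells (SE 0.21, adjusted p = 0.0271, limma) and by 1.02 in WT cells (SE 0.21, adjusted p = 0.00583, limma). Its neighbour A_55_P2070913, 202 bases upstream and the brightest Rpl14 probe, differed by -0.17 in KO cells and -0.55 in WT cells and was not called. A further probe named Rpl14 but placed on chromosome 7, A_55_P2137461, was called lower in WT cells (-0.66).

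The other called falls in WT cells were in genes for large subunit proteins: Rpl39 (probe A_66_P126080, -0.86 ± 0.22), Rpl23 (A_51_P108190, -0.64 ± 0.17), Rpl27a (A_51_P132459, -0.64 ± 0.16), Rpl36a (A_55_P1956707, -0.63 ± 0.17), Rpl13a (A_55_P2101910, -0.56 ± 0.18, and A_55_P2052613, -0.51 ± 0.17) and Rpl15 (A_66_P140976, -0.45 ± 0.15), with adjusted p between 0.0145 and 0.0482 (limma). Of the 69 small subunit probes none was called lower, and their median difference of -0.27 was close to the -0.28 of the large subunit probes. The Rpl23 probe measured 0.17, 0.07 and -0.13 in WT cells at 3 h, against 0.69, 0.70 and 0.63 in WT cells at 0 h. The brightest Rpl23 probe measured 5.49, 5.46 and 5.39 in WT cells at 3 h, against 5.65, 5.63 and 5.52 in WT cells at 0 h. Both Rpl23 probes separate the 2 times, and the size differs, at -0.64 and -0.16.

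**Figure D3:**
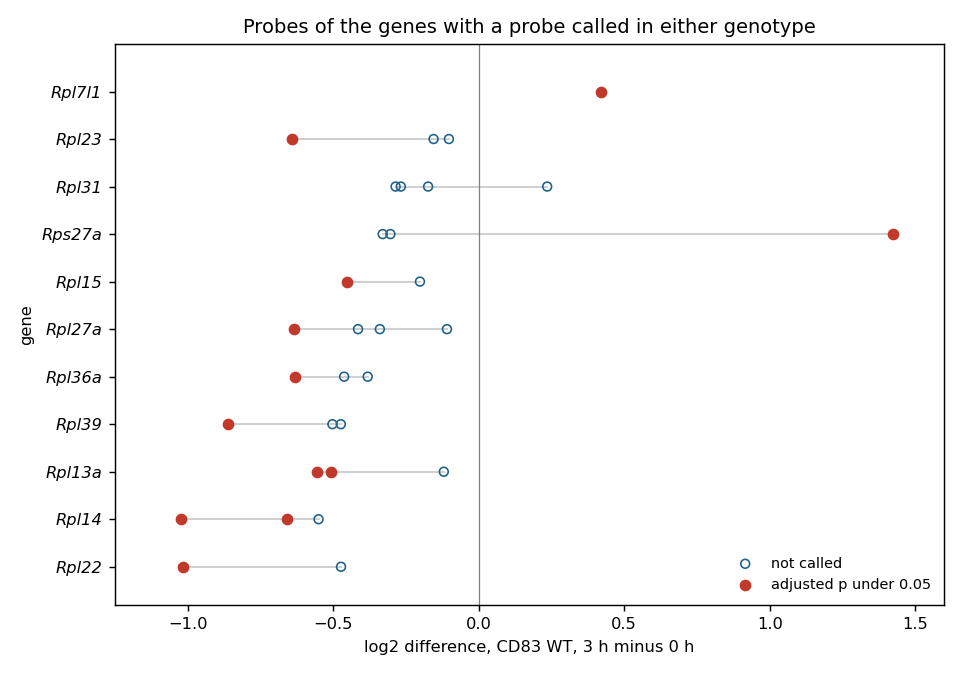
Log2 difference of each probe in WT cells, 3 h minus 0 h (x axis), with 1 row (y axis) for each ribosomal protein gene that had a probe called in WT or KO activation; filled points were called in WT cells and grey lines join probes of 1 gene. Filled points on the left lie apart from open points of the same gene, such as Rpl23 at -0.64 beside -0.16.

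The probes called higher in WT cells were those of Rpl7l1 and 1 of Rps27a. Rpl7l1 encodes a paralogue of Rpl7 that, in human cells, takes part in making the large subunit. Its only probe, A_52_P343343 (mm9 chr17:46912582-46912641, minus strand), measured -3.60, -3.67 and -3.52 in KO cells at 3 h, -3.98, -3.93 and -3.77 in KO cells at 0 h, -3.40, -3.50 and -3.60 in WT cells at 3 h, and -3.99, -3.86 and -3.91 in WT cells at 0 h. The 2 times did not overlap in either genotype. The difference was 0.42 ± 0.14 in WT cells (SE, adjusted p = 0.0407, limma) and 0.30 ± 0.14 in KO cells (SE, adjusted p = 0.165, limma). The brightest Rpl7 probe, A_55_P2081168, differed by -0.14 in WT cells and 0.04 in KO cells, neither called.

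Rps27a encodes a small subunit protein made as a fusion with ubiquitin. Its probe A_55_P2025173 (mm9 chr11:29447939-29447998, minus strand), about 2 kb upstream in transcript direction of the other probes of the gene, measured -6.50, -5.70 and -5.45 in KO cells at 3 h, -7.46, -7.21 and -6.06 in KO cells at 0 h, -6.24, -6.04 and -6.41 in WT cells at 3 h, and -7.10, -8.19 and -7.67 in WT cells at 0 h. All WT arrays at 3 h were above all WT arrays at 0 h, while the KO times overlapped. It was not well above background on any WT array at 0 h, so it met the signal condition through other groups alone. With arrays at 0 h raised, where lower, to the lowest signal well above background, the level at 3 h was 2.05-fold higher. That floor is taken over all probes, so the fold is not a strict bound for this probe. The adjusted p of 0.0272 (limma) rests on these dim values and reached 0.257 among 21 alternative settings. The other Rps27a probes did not share this rise. The brightest, A_55_P1976108, measured 6.34, 6.24 and 6.11 in WT cells at 3 h, against 6.72, 6.44 and 6.45 in WT cells at 0 h. Its difference of -0.30 was not called.

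**Figure D4:**
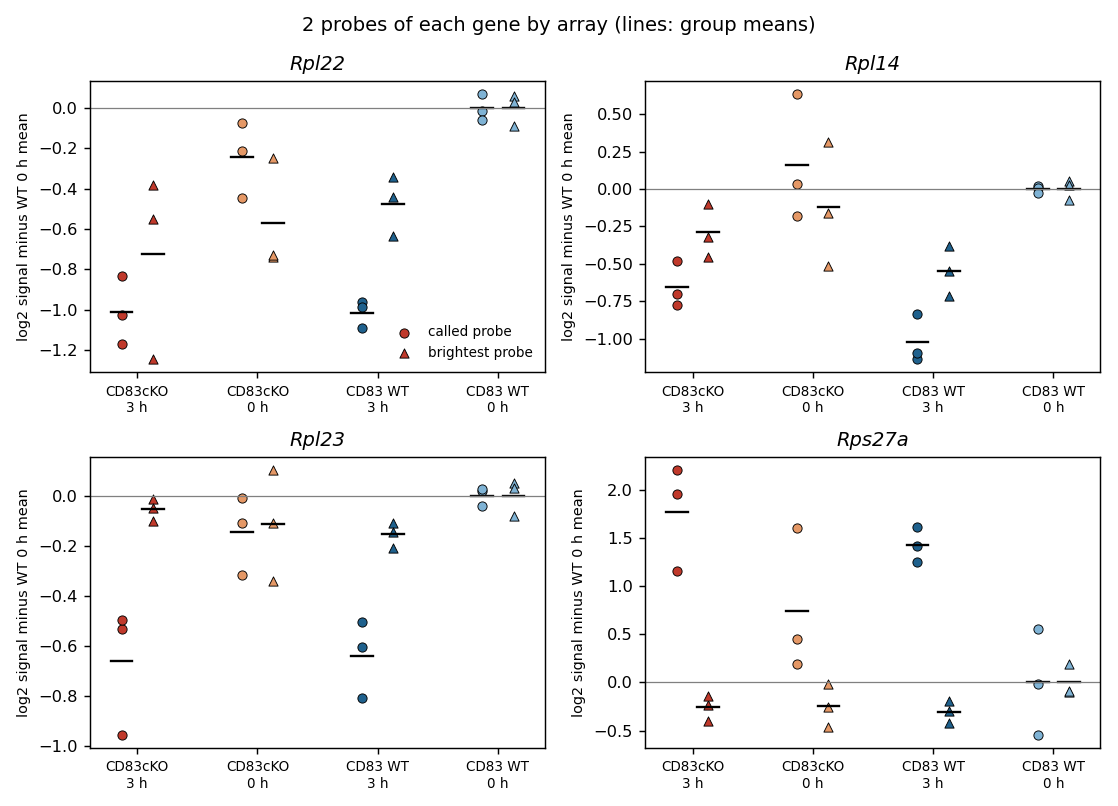
Log2 signal minus the probe's mean in WT cells at 0 h (y axis) for the called probe (circles) and the brightest probe (triangles) of Rpl22, Rpl14, Rpl23 and Rps27a in each group (x axis); lines are group means of 3 arrays. In Rps27a the WT differences between 3 h and 0 h are 1.42 for the circles and -0.30 for the triangles.

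The position of the called probes was looked at after their values were seen, so it is a description. For 49 genes, 2 or more tested probes (128 in all) were placed on the gene's own chromosome within 100000 bases of the gene's median probe position. Of the 9 such probes called lower in WT cells, 7 were the most downstream probe of their gene and none was the brightest; of the 4 called lower in KO cells, 4 were the most downstream. Without the 21-week arrays, 47 such probes were called lower in WT cells, of which 22 were the most downstream and 17 the brightest, and 7 in KO cells, all of them the most downstream and none the brightest. Among all 128 probes, 51 were the most downstream, and 20 of those were also the brightest. The median difference of the most downstream probes and of the others was -0.28 for each set in WT cells, and -0.08 and -0.05 in KO cells. AATAAA was present in 4 of the 11 member probes called lower in either genotype (36.4%, against 30.6% of all member probes). On the opposite strand it was present in 3 of the 11 (27.3%, against 2.73%). ATTAAA was present in 3 of the 11 on the strand of the probe (27.3%, against 7.1%). The Rpl39 probe A_66_P126080 holds AATAAA outside the 30 bases shown. No genome of the files' build was used here, so no exon or intron is assigned.

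In KO cells, the size and the sign of the median member difference between 3 h and 0 h depended on the settings and on single arrays. The median difference was -0.05 (quartiles -0.12 and 0.03), against -0.02 over all tested probes, with 62 members above 0 and 121 below. It was -0.13 under quantile normalization and in the deposited table, with 20 above and 163 below in both, and -0.16 without KO replicate 1 at 0 h, with 16 above and 167 below. It was 0.02 with array quality weights (105 above and 78 below) and 0.02 without KO replicate 3 at 0 h (99 and 84). Without KO replicate 3 at 3 h it was 0.05 (115 and 68). In WT cells quantile normalization gave -0.15. Of 183 members 4 were called (2.19%), all lower, against 16.3% of all tested probes (8.87% lower), and 11 had an unadjusted p under 0.05 (6.01%, against 32% of all tested probes). They were Rpl22 and Rpl14, described above, Rpl15 (A_66_P140976, -0.55 ± 0.15, adjusted p = 0.0357, limma) and Rpl31 (A_51_P452820, -0.60 ± 0.16, adjusted p = 0.0286, limma), both for large subunit proteins. The Rpl31 probe measured -1.99, -2.11 and -2.33 in KO cells at 3 h, against -1.63, -1.54 and -1.43 in KO cells at 0 h. In WT cells the same probe overlapped between times, at -2.07, -2.18 and -2.23 at 3 h, against -2.11, -1.80 and -1.77 at 0 h.

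The KO values changed without the 21-week arrays. The median member difference was then 0.12 and 150 members were above 0, and 10 members were called, 2 higher and 8 lower (5.46%, against 44.3% of all tested probes). The 2 called higher were the Rps27a and Rpl7l1 probes that were called higher in WT cells, at 1.24 and 0.32. With the 6 KO arrays alone in the fit, on 1 slide, none of the members was called, against 0.56% of all tested probes.

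The 2 activation comparisons share no arrays, although they share the estimate of spread. Of the 4 probes called in KO cells, 3 (75%) were called in WT cells, which is 25% of the 12 called there. Across the 183 probes the KO and WT differences had a Pearson correlation of 0.77 and a Spearman correlation of 0.66, given as a description, since probes of 1 gene and of retrocopies are not independent. Neither the overlap nor the correlations were computed over all tested probes, so they do not show a trait particular to ribosomal protein genes. The interaction test, which takes the KO activation effect minus the WT one, called none of the members, and none of all tested probes (0%). At an unadjusted p under 0.05 it held none of the members, against 3.66% of all tested probes. The median of this difference was 0.22 over members, with 165 above 0, against 0.05 over all tested probes; under quantile normalization the member median was -0.01.

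**Figure D5:**
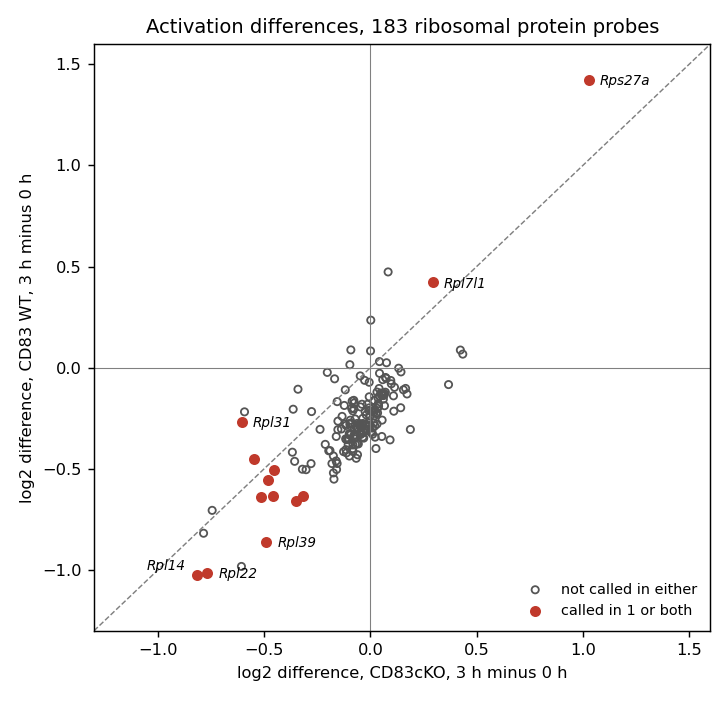
Log2 difference, 3 h minus 0 h, of each of the 183 ribosomal protein probes in KO cells (x axis) and in WT cells (y axis); filled points were called in 1 or both, and the dashed line marks equal differences. The bulk lies near -0.05 in KO cells and -0.28 in WT cells, while Rpl22 and Rpl14 are low and Rps27a and Rpl7l1 high in both.

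Between genotypes without activation, ribosomal protein probes were mostly lower in KO cells, but no single probe passed the test. The median difference, KO minus WT, was -0.22 against -0.03 over all tested probes, and 162 of 183 members were below 0. All KO arrays lay below all WT arrays in 76 members (41.5%), against 13.6% of all tested probes. None was called, against 1.82% of all tested probes (limma), and 18 had an unadjusted p under 0.05 (9.84%, against 14.1% of all tested probes). The shift relative to all tested probes depended on scaling: it was -0.20 here and 0.02 under quantile normalization, where the median member was at -0.13 and the median of all probes at -0.15. Without KO replicate 1 the median member difference was -0.11. Marker means for monocytes and macrophages were 2.07 to 2.41 in KO cells at 0 h and -0.38 to 0.34 in WT cells at 0 h, and those for erythroid cells (7 of 8 markers tested) were 2.49 to 3.37 and -1.31 to 1.12; their part in the result was not tested.

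The most negative member difference between genotypes at 0 h was that of Rpl39l. Rpl39l, a paralogue of Rpl39 with its main expression in testis, measured -6.15, -7.01 and -6.47 in KO cells at 3 h, -6.21, -6.09 and -5.51 in KO cells at 0 h, -5.05, -6.32 and -5.38 in WT cells at 3 h, and -4.43, -4.84 and -4.53 in WT cells at 0 h. All KO arrays at 0 h were below all WT arrays at 0 h, and the probe was well above background on 1 of the 3 KO arrays at 3 h. Its difference was -0.96 ± 0.35 at 3 h (adjusted p = 0.354, limma) and -1.34 ± 0.35 at 0 h (adjusted p = 0.0959, limma). Other large differences at 0 h, none called, were -0.78 for Rps21 and -0.66 for Rps3 (A_51_P318640), and 0.75 for Rps27a (A_55_P2025173) and 0.50 for Rps4y2.

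After 3 h of activation no member probe was called between genotypes, and the median depended on scaling. The median difference was -0.02, against 0.02 over all tested probes, with 80 members above 0 and 103 below. It was -0.12 under quantile normalization (31 above and 152 below, all tested probes at -0.15) and -0.22 with the 75th percentile taken over all probes (18 above and 165 below, all tested probes at -0.17). None of the members was called (limma), against 1.26% of all tested probes, and 1, Rpl39l, had an unadjusted p under 0.05, against 10.1% of all tested probes. Without the 21-week arrays the median member difference was 0.08, and again none was called. Other large differences at 3 h were -0.34 for Rps21 and -0.33 for Rpl21, and 0.83 for Rps24 (A_55_P1955243) and 0.46 for Rps4y2.

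None of the 6 P stalk probes was called in any of these comparisons. The brightest Rplp0 probe, for the stalk's base, measured 6.68, 6.63 and 6.51 in KO cells at 3 h, 6.24, 6.47 and 6.68 in KO cells at 0 h, 6.53, 6.58 and 6.40 in WT cells at 3 h, and 6.60, 6.54 and 6.44 in WT cells at 0 h. All 4 groups overlapped, and its WT activation difference was -0.02 ± 0.15. The brightest probes of Rplp1 and Rplp2, for the 2 acidic proteins, differed by -0.28 and -0.29 in WT cells and by -0.12 and 0.02 in KO cells, none called. Rpsa, a small subunit protein outside the name pattern, differed by -0.35 in WT cells and -0.11 in KO cells, also not called.

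Of the paralogues other than Rpl7l1, none described here was called with all 12 arrays in the fit. Rpl39l differed between 3 h and 0 h by -0.61 in KO cells and -0.98 in WT cells (adjusted p = 0.259 and 0.0576, limma). Without the 21-week arrays its WT difference, again -0.98, was called (adjusted p = 0.0394, limma). Rps4y2, whose probe A_55_P2001628 carries an accession that RefSeq now lists under Rps4l, measured -4.22, -3.68 and -4.32 in KO cells at 3 h, -3.24, -3.11 and -3.63 in KO cells at 0 h, -4.22, -4.96 and -4.42 in WT cells at 3 h, and -3.80, -4.04 and -3.65 in WT cells at 0 h. Arrays at 3 h were below those at 0 h in both genotypes, with differences of -0.74 in KO cells and -0.70 in WT cells that were not called (adjusted p = 0.071 and 0.0606, limma). Without the 21-week arrays it was called lower in both, at -0.77 in KO cells (adjusted p = 0.049, limma) and -0.70 in WT cells (adjusted p = 0.027, limma). The brightest Rps4x probe differed by -0.04 and -0.29. Rpl22l1, which can replace Rpl22 in the ribosome, differed by -0.09 in KO cells and -0.16 in WT cells. Rps27l differed by -0.09 and 0.09, beside 0.01 and -0.30 for the brightest Rps27 probe. The brightest probes of Rpl3 and Rpl10 differed by -0.30 and -0.21 in WT cells, not called, and their paralogues Rpl3l and Rpl10l did not reach the signal condition.

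Among the probes with the widest range over the 12 arrays were Rps27a A_55_P2025173 (2.75 log2 units), Rpl39l (2.58), Rps24 A_55_P1955243 (2.43) and Rps21 (2.31). The Rps24 probe, which spans a splice junction (mm9 chr14:25312695-25315015), measured 0.47, 0.58 and 2.63 in KO cells at 3 h, 0.48, 0.73 and 2.40 in KO cells at 0 h, 0.50, 0.20 and 0.50 in WT cells at 3 h, and 0.90, 0.75 and 0.75 in WT cells at 0 h. Both high values are the arrays of 21-week mice, and the other 10 arrays lie between 0.20 and 0.90. The brightest Rps24 probe had a range of 0.65; its 2 highest values, 6.32 at 3 h and 6.36 at 0 h, were from the same 2 arrays, and the other 10 arrays lay between 5.71 and 6.15. The narrowest ranges were those of Rpl6 (A_55_P2042426, 0.37, and A_55_P2052634, 0.40), Rps6 (A_55_P1963817, 0.41), Rpl13 (A_55_P2009588, 0.41) and Rpl7a (A_55_P2039598, 0.43). Rps6 is the target of S6 kinase downstream of mTORC1.

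Probes of the same gene mostly gave close differences. Of 61 genes with 2 or more tested probes, the median gap between the highest and the lowest probe was 0.12 for WT activation and 0.11 for KO activation. The signs of the probes differed in 6 genes for WT activation and in 23 for KO activation, where the values are near 0. A gap over 1 occurred for Rps27a in both activation comparisons and in the genotype comparison at 0 h. By placement on mm9, 119 member probes were contiguous, 39 spanned a splice junction, 24 were placed on another chromosome than their gene, and 1 was not placed. The median WT activation difference was -0.25, -0.29 and -0.29 for the first 3 classes. Whether such probes read the gene or a copy elsewhere was not tested; all Rps27, Rps29 and Rps4x probes fell on another chromosome than the gene.

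The starts of some member genes are shown next because these messages are known for the TOP motif at their 5′ end. RefSeq (GRCm38.p6) held an entry for 59 of the 81 genes. Each line gives 30 bases before the annotated start and the first 20 from it on, and capitals mark CTTTC or CTTTT or CTTCC.
Rps27 start, chr3:90213629-90213678, minus strand: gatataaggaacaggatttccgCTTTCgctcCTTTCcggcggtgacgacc
Rpl13a start, chr7:45128726-45128775, minus strand: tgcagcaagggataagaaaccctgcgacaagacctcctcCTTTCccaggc
Rpl14 start, chr9:120571487-120571536, plus strand: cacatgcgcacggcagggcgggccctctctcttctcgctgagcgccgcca
Rpl7l1 start, chr17:46782637-46782686, minus strand: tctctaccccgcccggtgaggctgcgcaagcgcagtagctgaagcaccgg

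Within 20 bases on either side of the start, at least 1 of the 3 motifs was present in 33 of 70 entries of member genes (47.1%) and in 17.2% of all 32851 entries on the strand of the gene, and in 21.4% and 17.3% on the opposite strand. CTTTC alone was present in 27.1% of the member entries and 5.49% of all entries. The motifs end or start in shared letters and may overlap. Rpl14 and Rpl7l1 hold none of them in this window, which says only that these letters are not there. The Rpl14 line does show a run of pyrimidines across its annotated start, which the motifs searched do not capture.

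The other parts of the translation machinery were taken from lists of 1 probe a gene. Of 20 TOP-encoded translation factors none was called in either activation comparison, against 16.3% of all tested probes in KO cells and 29.3% in WT cells. The largest WT difference was -0.43 for Eef1d, a subunit of elongation factor 1. Among 47 ribosome biogenesis genes 12 were called higher and 5 lower in WT cells, and 3 higher and 4 lower in KO cells. These are 25.5% and 10.6% in WT cells, against 13.7% and 15.6% of all tested probes, and 6.38% and 8.51% in KO cells, against 7.44% and 8.87%. Ddx21, a nucleolar helicase, rose by 1.14 in KO cells and 1.56 in WT cells, while its other tested probe, at -0.31 and -0.36, was not called. Gnl3 (nucleostemin) rose by 1.13 in WT cells. Dkc1, Gar1 and Nop10, core proteins of the box H/ACA particles that modify ribosomal RNA, fell by 1.01, 0.69 and 0.86 in KO cells and by 1.07, 0.77 and 1.00 in WT cells; Nhp2, the other core protein, differed by -0.43 and -0.48 and was not called.

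Mitochondrial ribosomal proteins, which form the separate ribosome of mitochondria, had negative median differences after activation. Of 76, 3 were called higher and 20 lower in WT cells and none higher and 7 lower in KO cells, with medians of -0.41 and -0.33, against -0.10 and -0.02 over all tested probes. The shares called lower were 26.3% in WT cells, against 15.6% of all tested probes, and 9.21% in KO cells, against 8.87%. Mrps35 fell by 1.06 in WT cells and 0.92 in KO cells. Of 15 regulators of mTORC1 and TOP messages, 3 were called higher in KO cells (20%, against 7.44% of all tested probes). In WT cells 4 were called higher and 1 lower (26.7% and 6.67%, against 13.7% and 15.6% of all tested probes). Sesn2, an inhibitor of mTORC1, rose by 1.75 in KO cells and 1.92 in WT cells, and Rheb, an activator of mTORC1, by 1.15 and 1.28. Ddit4, another inhibitor of mTORC1, fell by 1.04 in WT cells (adjusted p = 0.0463, limma) and differed by -0.78 in KO cells, not called. Of 10 genes of ribosome quality control and its p53 response, 3 were called higher in KO cells (30%) and 1 in WT cells (10%). The shares of all tested probes were 7.44% and 13.7%. Among the 10, the cell cycle inhibitor Cdkn1a rose by 4.75 in KO cells and 5.70 in WT cells. In the genotype comparisons none of these lists had a called member at either time, against 1.82% of all tested probes at 0 h and 1.26% at 3 h.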

How the data were processed

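The authors deposited 1 scanner file per array with spot intensity values on a linear scale, from Agilent Feature Extraction (version 11 per the submitters' processing notes, 10.7.3.1 per the file headers). The signal used is background-subtracted and detrended within the array, per the file headers. A deposited table of log2 values, with the same distribution in every column and a median of 3.89, had unstated scaling and served as an alternative; Partek is named without a version. Per the labels, amplification started from 20 ng of RNA for sample 1 at 0 h and 40 ng for the others.

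From these files, spots of a probe were averaged and log2 processed signals were shifted by each array's 75th percentile of the 19799 probes that exceeded background everywhere, because on average 46.38% of probes did so per array. The 26261 probes that passed the background flag throughout 1 or more groups were fitted with limma 3.58.1 in R 4.3.3 (lmFit, eBayes, two-sided, 4 group means, 8 residual degrees of freedom); p-values were adjusted by Benjamini-Hochberg with a threshold of 0.05. The fit was also run on simulated data with independent noise on each array. Those data held no shared mice and no slide effects, so they do not test the fit under such features. No member was flagged as saturated and 180 of 183 were above background everywhere. On the linear scale a probe of Rps16 reached 329530, against array maxima of 352299 to 437045. Whether signals near the top of the scale understate differences was not tested. The fold given for a probe not above background in 1 group uses the lowest signal of probes well above background as a floor. Named probes were the P stalk and Rpsa, listed paralogue pairs, up to 10 called members in each direction (all called members here), or otherwise the 3 largest differences each way, the 5 widest and 5 narrowest ranges, and genes whose probes disagreed; each other list gave up to 4 called members. All members and lists were chosen with earlier results of these data known. Alternatives covered scaling, background, filters, the deposited table, brightest probe per gene, array weights and left-out arrays. A few probes that this naming rule also takes are not reported here.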

Additional observations from a re-analysis of the deposited data

How the results depend on the processing

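The number of member probes called for KO activation, 4, became 2 with the 75th percentile taken over all probes and 1 with no shift between arrays. It became 7 with quantile normalization, 7 from the deposited table and 1 with no filter on dim probes. With the brightest probe per gene it was 0, against 17.2% of all 18560 genes. Without both 21-week arrays it was 10 (5.46%, against 44.3% of all tested probes). Array quality weights gave 8 (4.37%, against 39.5%), and KO arrays alone gave 0 (against 0.56%). Leaving out single arrays gave 1 to 8 (8 without KO replicate 3 at 0 h, 1 without KO replicate 2 at either time). For WT activation, 12 became 7 with the percentile over all probes, 2 with no shift, 3 with no filter, 1 with the brightest probe per gene, 65 without both 21-week arrays, 109 with array quality weights (59.6% against 64.6% of all tested probes, and 58.5% against 34.6% for lower calls) and 86 with WT arrays alone (47% against 59.5%, and 45.9% against 32.9% for lower calls); leaving out single arrays gave 2 to 28 (28 without KO replicate 3 at 3 h, 2 without WT replicate 2 at 0 h or WT replicate 3 at 3 h, 3 without WT replicate 2 at 3 h, 4 without WT replicate 1 or 3 at 0 h). For KO minus WT at 0 h, the count of 0 became 3, all lower, with array quality weights. That is 1.64%, against 9.94% of all tested probes and 2.49% for lower calls. At 3 h the count of 0 became 1, higher, with no filter. Leaving out single arrays gave 0 at both times. Counts in this paragraph without a share over all tested probes beside them are not read as results about the members. The difference of activation effects gave 0 under every alternative run. No direction of a called member was reversed. The cause of these changes was not tested, except that settings with fewer arrays or genes, by construction, change the spread or the adjustment. No paired analysis was possible because the replicate numbers follow the order of deposition and the labels do not say which arrays share a mouse. The member median for WT activation ran from -0.32 to -0.15 over the settings tried, and that for KO activation from -0.35 to 0.12.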
